A study of Mus musculus with 54 samples.

Results

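Brain RNA of vehicle-treated APPSWE-1349 transgenic mice was compared with that of vehicle-treated control littermates, to ask what the transgene alone changed at an age before the full symptoms of this dementia model. Of the 54 libraries of the series, which also hold aged kidney, brain and heart, 10 brain libraries met the rule of this comparison (brain, 6-7 months, vehicle only). They are the APPSWE libraries s140, s142, s144, s145 and s146 and the control libraries s149, s150, s151, s154 and s155, in which order their values are given throughout. All 10 came from male mice on a BL6 background that had been injected intraperitoneally each day for 14 days with the vehicle of Cmpd60, an inhibitor of histone deacetylases 1 and 2, at 7.5 ml/kg, a mixture of 2% DMSO, 49% PEG400 and 49% saline. APPSWE mice (AD-transgenic in the labels) carry the human APP 695 isoform with the Swedish mutation, and the littermates do not. The promoter of the transgene is not given in the sources used here, nor do the labels say whether each library is a separate mouse, so the p-values measure the spread between these libraries. Library s139, also APPSWE, is vehicle in the labels and Cmpd60 in the study's table, and it entered neither group. The 9 other brain libraries of the cohort, 4 of APPSWE and 5 of control mice that received Cmpd60, took part in the fit of the spread and are given beside some results.

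APP, the amyloid precursor protein, is a membrane protein of neurons. It is cut either by the alpha-secretase Adam10, which releases a soluble fragment, or by the beta-secretase Bace1 and then by gamma-secretase, a membrane complex with nicastrin, Aph1 and Psenen among its subunits, which releases amyloid beta. The Swedish mutation lies beside the Bace1 cut site and favours that cut. In mice that carry such transgenes, amyloid deposits are accompanied, as the animals age, by microglia that take up a disease-associated state led by Trem2 and its partner Tyrobp, and by astrocytes that raise Gfap. These genes, with lists of synaptic, stress and cell type genes, set the order of what follows.

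Between 25119590 and 55871402 reads of each library fell on genes (median 27711365), and 23273 of the 54232 genes listed were tested. Values are CPM, counts scaled to the size of each library with TMM factors, and results are given for the 10417 genes with a mean of at least 10 CPM over the 10 libraries. The libraries expressed the markers that define brain, with Snap25 of nerve terminals between 2565 and 3096 CPM and Mbp of myelin between 2753 and 3552 CPM. Y-linked genes summed to 134-157 CPM in the APPSWE and 124-167 CPM in the control libraries, . Genes with at least 1 count numbered from 15044 to 23151 per library, against 24939 to 28017 in the 12 aged brain libraries of the series. Control library s155 (15044 genes), APPSWE library s140 (15555) and APPSWE library s146 (16577) had the fewest, and their genes lay farthest from their group means, so where leaving out these 3 libraries turned the sign of a named gene's log2 fold change or moved it by over 1.5 times, the value without the 3 is given as well. The most alike pair of libraries within a group still differed 19.2 times more than counting error (chi-square per degree of freedom), so no library was counted as a copy of another.

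The gene of the transgene was examined first. App was at 2087, 2182, 2385, 2287 and 2296 CPM in the APPSWE libraries and at 2214, 2123, 1949.9, 2267 and 2224 CPM in the control libraries. The groups overlapped, with 2247 ± 115 CPM in the APPSWE mice (SD, n = 5) and 2156 ± 126 CPM among the littermates (SD, n = 5). The log2 fold change of App (ENSMUSG00000022892) was 0.06 (standard error 0.06, 95% confidence interval -0.07 to 0.19), which bounds the change between -4.67% and 14.0%. It did not pass the test (adjusted p = 0.884, edgeR's quasi-likelihood test with Benjamini-Hochberg adjustment), nor did an exact two-sided permutation test of the 10 libraries (p = 0.294, where 0.00794 is the smallest possible). With Cmpd60 the difference was 0.01, and the test of the difference between these genotype effects did not pass (adjusted p = 0.99998, edgeR). The counts are of reads on mouse genes, and whether reads of the human sequence reach mouse App was not tested, so App does not check the genotype labels. Prnp, the prion protein gene, whose promoter drives many APP transgenes, was at 541, 646, 594, 617 and 592 CPM in the APPSWE libraries and at 621, 581, 607, 643 and 522 CPM in the control libraries. Its log2 fold change was 0.01 (standard error, SE, 0.07), and the groups overlapped.

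**Figure D1:**
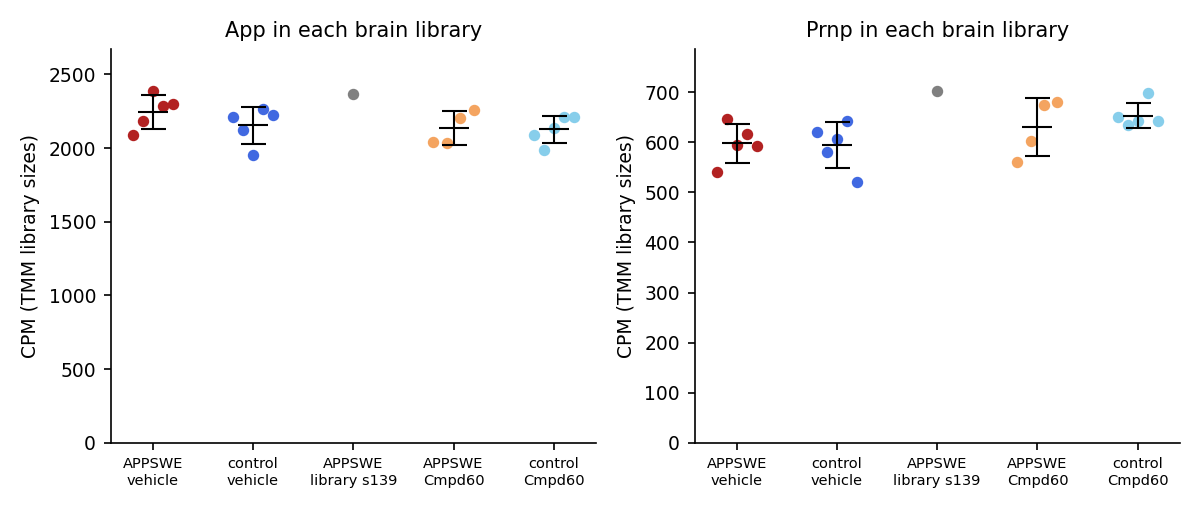
App (left) and Prnp (right) in CPM on the y axis, starting at 0, by group on the x axis. Each point is 1 brain library, and bars are the mean ± SD; library s139 is shown apart. App lay between 1949.9 and 2385 CPM in all 10 vehicle libraries, and the APPSWE and control points overlap in both panels.

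Across the genome, the brains of the APPSWE mice and their littermates differed in few genes. Of the 10417 genes with a mean of at least 10 CPM, 1 passed an adjusted p-value of 0.05 (0.0096%), the ribosomal protein gene Rpl29, and the next smallest adjusted p-value, of Trank1, was 0.356. At an unadjusted p-value below 0.01 there were 67 genes (0.643%), 26 higher and 41 lower in the APPSWE mice. Below 0.05 there were 515 (4.94%), of which 266 were higher (2.55%) and 249 lower (2.39%). The log2 fold change was above 0 in 53.3% of the genes, with a median of 0.01, and the 5th and 95th percentiles were -0.35 and 0.36. Only 11 genes differed by more than 1 on the log2 scale, against a median standard error of 0.17. In 80 genes (0.768%) the groups did not overlap, 46 with every APPSWE library above every control library and 34 with every one below. Genes under 10 CPM added 1 call, an unnamed gene described with Rpl29.

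**Figure D2:**
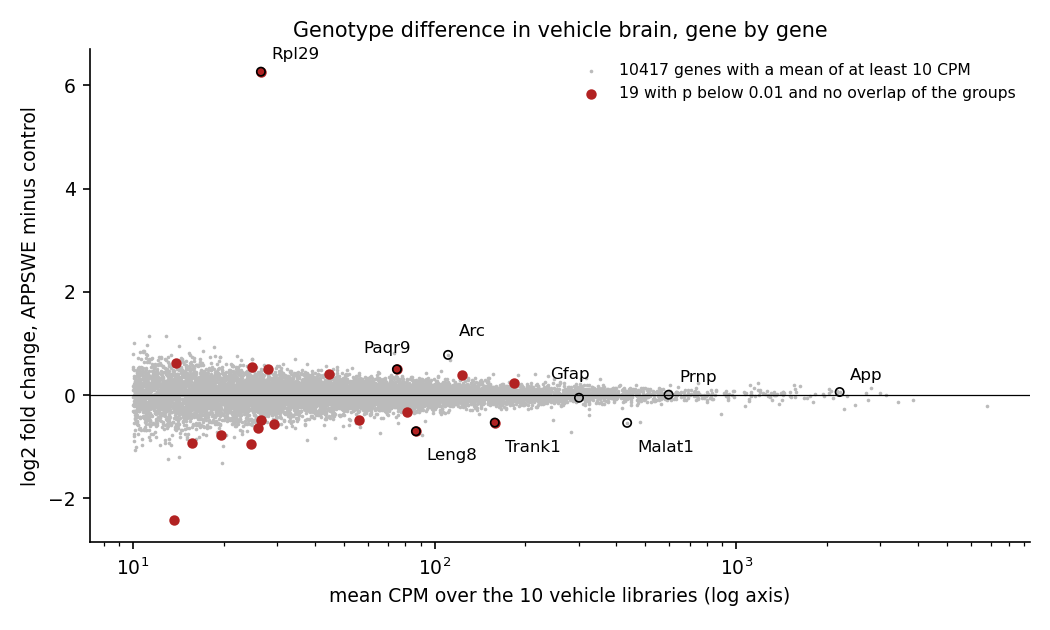
Log2 fold change of APPSWE over control mice (y axis) against the mean CPM over the 10 vehicle libraries (x axis, log scale) for the 10417 genes with a mean of at least 10 CPM; red points are the 19 genes with p below 0.01 and no overlap of the groups, and circles mark genes named in the text. Rpl29, at 6.26, stands alone at the top, while App, Prnp and Gfap lie near 0.

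Rpl29 encodes a protein of the large ribosomal subunit. It was at 35.0, 56.2, 36.9, 103 and 30.98 CPM in the APPSWE libraries and at 0.625, 0.447, 0.639, 1.71 and 0 CPM in the control libraries. No APPSWE library was near the controls, which held between 0 and 44 reads of Rpl29 each, against 879 to 2775 in the APPSWE libraries. Rpl29 (ENSMUSG00000048758) was higher by 6.26 on the log2 scale (standard error 0.98, 95% confidence interval 4.25 to 8.28, adjusted p = 0.0102, edgeR). The adjusted p-value was 0.000178 with DESeq2 and 0.000128 with edgeR on the 10 vehicle libraries alone. With limma-voom it was 0.585, and 0.611 with quality weights. By edgeR it was above 0.05 without control library s149 (0.0783), s150 (0.0974) or s155 (0.0606) and without the 3 libraries of few genes (0.134). The log2 fold change stayed between 5.86 and 6.93 across all alternatives.

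The gene of this name has a close copy, so the sequence matters to what was counted. In gencode vM1 on NCBIM37, Rpl29 lies on the plus strand of chromosome 9, from 106331785 to 106333899, in 4 exons, and the predicted gene Gm10709, named here after its values were seen, lies at 7751725 to 7752207 of the same chromosome and strand in 1 exon. These are the positions of that annotation, since the build of the deposited counts is not given in the sources used here. Both coding sequences are 483 bases long and differ at 4 positions (G205A, C300T, T423C and G457A, with the base of Rpl29 first and positions counted from 1 at the A of the ATG), an identity of 99.17%. Over the first 204 bases they are identical, so a read from there cannot be assigned to one of them. Positions 190 to 459 hold all 4 differences, shown here in capitals, 5′ to 3′, because so few bases tell the genes apart.
Rpl29: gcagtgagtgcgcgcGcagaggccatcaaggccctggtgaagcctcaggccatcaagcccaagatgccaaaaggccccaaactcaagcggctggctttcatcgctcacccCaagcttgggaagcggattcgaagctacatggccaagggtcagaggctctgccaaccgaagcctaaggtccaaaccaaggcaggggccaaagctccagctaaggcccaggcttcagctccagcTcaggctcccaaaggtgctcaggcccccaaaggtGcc
Gm10709: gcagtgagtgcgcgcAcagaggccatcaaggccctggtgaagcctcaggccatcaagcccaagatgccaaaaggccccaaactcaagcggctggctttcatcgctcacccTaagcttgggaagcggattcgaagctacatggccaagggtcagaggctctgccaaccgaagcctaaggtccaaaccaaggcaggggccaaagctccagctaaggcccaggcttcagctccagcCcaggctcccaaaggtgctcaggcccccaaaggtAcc

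Gm10709 (ENSMUSG00000074516) was likewise low in the vehicle control libraries. It was at 9.74, 8.50, 3.26, 5.59 and 8.74 CPM in the APPSWE libraries, from 93 to 545 reads, and at 0, 0, 0.0355, 0.116 and 0.121 CPM in the control libraries, from 0 to 3 reads. With a mean under 10 CPM and an adjusted p-value of 0.148 (edgeR), Gm10709 did not pass the test, and no fold is given against so few reads. A gene without a symbol, ENSMUSG00000094446, was at 27.8, 12.0, 7.23, 16.3 and 12.0 CPM in the APPSWE libraries and at 0.0368, 0.131, 0.178, 0.155 and 0.0402 CPM in the control libraries. It passed the test (adjusted p = 0.00156, edgeR), with 206 to 1554 reads in the APPSWE and 1 to 5 in the control libraries. Reads that align to several places were counted apart from the genes, at 3.11 to 3.59% of reads in the APPSWE and 3.08 to 3.51% in the control libraries. Reads common to Rpl29, Gm10709 and similar sequences can therefore be missing from these values. Whether the reads counted came from the gene they were given to was not tested.

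The low level did not follow the genotype in all libraries of the cohort. In the Cmpd60-treated controls, Rpl29 was at 0, 20.5, 0.438, 21.8 and 20.8 CPM in libraries s152, s153, s156, s157 and s158, so 2 of them were as low as the vehicle controls and 3 were not. The 4 Cmpd60-treated APPSWE libraries lay between 16.5 and 73.8 CPM and library s139 at 24.7 CPM. Over the whole cohort, Rpl29 was under 2 CPM in 7 of 10 control and 0 of 10 APPSWE libraries, and the same counts held for ENSMUSG00000094446. Gm10709 was under 2 CPM in 7 of 10 control and also in 2 of 10 APPSWE libraries, both Cmpd60-treated. The genotype difference of Rpl29 in the Cmpd60-treated mice was 1.46 (SE 0.80), and the test of its difference from the 6.26 of the vehicle mice gave an adjusted p-value of 0.938 (edgeR). In the 12 brain libraries of the aged cohort, Rpl29 was between 43.1 and 58.2 CPM with none near 0. No sequence of the mice themselves was analysed here, and the part of their strain background in these levels was not tested.

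**Figure D3:**
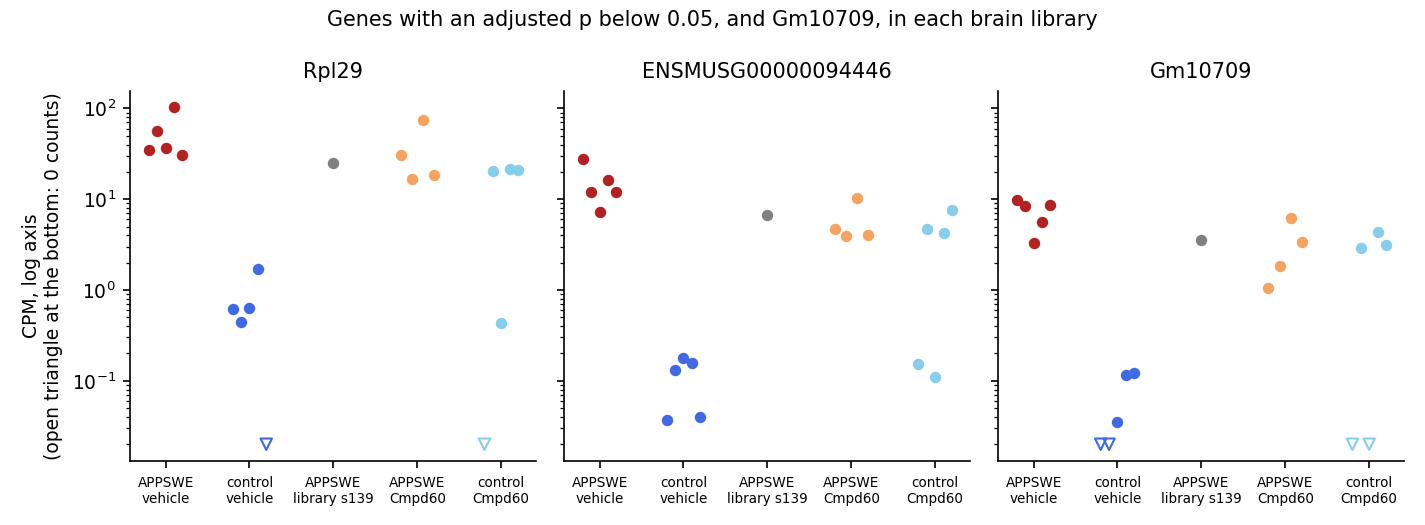
Rpl29, ENSMUSG00000094446 and Gm10709 in CPM (y axis, log scale) in each of the 20 brain libraries of the cohort by group (x axis); open triangles at the bottom are libraries with 0 counts. The vehicle APPSWE points lie above the vehicle control points in all 3 panels, and the Cmpd60-treated controls fall into 3 libraries above 2 CPM and 2 at the low level.

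Beyond Rpl29, 18 genes had an unadjusted p-value below 0.01 and no overlap between the groups, so that with Rpl29 8 were higher and 11 lower in the APPSWE mice. Of all 10417 genes, 0.643% had p below 0.01 by edgeR and 0.768% had no overlap. Neither share was above its nominal rate, 0.01 and 0.00794 of the genes. The share with p below 0.01 depended on the method. It was 1.45% with DESeq2, 1.43% with limma-voom and 0.298% by edgeR on the vehicle libraries alone. The genes with p below 0.01 and no overlap are therefore described here and not claimed as effects of the transgene. None of the 18 passed the adjusted threshold in edgeR (lowest adjusted p = 0.356), and 2 of the 11 have no symbol. One of these, ENSMUSG00000094497, given after its values were seen because it lay farthest below 0, was at 2.29, 0.0720, 8.46, 0 and 10.7 CPM in the APPSWE libraries and at 22.9, 22.4, 18.3, 22.4 and 28.8 CPM in the control libraries, and the Cmpd60-treated controls lay between 5.06 and 14.9 CPM. Apart from Rpl29 and Trank1, no gene with a mean of at least 10 CPM had an adjusted p-value below 0.508 (edgeR), so the genes below are given by their log2 fold change with its standard error (SE), and thresholds of 0.05 and 0.01 refer to unadjusted p-values. The higher genes came from varied functions.

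Paqr9, a receptor of the progestin and adipoQ receptor family, was at 119.5, 85.3, 79.9, 70.3 and 83.9 CPM in the APPSWE libraries and at 67.7, 63.98, 62.6, 54.0 and 62.1 CPM in the control libraries. The highest control, 67.7 CPM, was close below the lowest APPSWE library, and the difference of Paqr9 was 0.50 (SE 0.14, 0.33 without the 3). Kctd16, an auxiliary subunit of GABA-B receptors, was at 21.7, 16.6, 15.9, 15.1 and 14.6 CPM against 12.0, 9.54, 11.2, 10.5 and 11.5 CPM, a difference of 0.62 (SE 0.22). Ndufs1, a core subunit of respiratory complex I, was at 215, 190.4, 199, 192 and 197 CPM against 179, 165, 181, 177 and 141 CPM, a difference of 0.24 (SE 0.08, 0.14 without the 3). Apoo, of the MICOS complex that shapes the inner mitochondrial membrane, differed by 0.55 (SE 0.20), with library s140 at 46.3 CPM and the other APPSWE libraries between 24.0 and 26.996 CPM, and by 0.27 without the 3 libraries of few genes. Eid2, an inhibitor of differentiation that binds EP300, differed by 0.50 (SE 0.18, 0.26 without the 3), Vat1l by 0.39 (SE 0.11) and the RIKEN model C130074G19Rik by 0.41 (SE 0.15).

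Among the lower genes, Trank1, a protein of ankyrin and tetratricopeptide repeats, had the smallest p-value after Rpl29. It was at 126, 146.2, 131, 126 and 118 CPM in the APPSWE libraries and at 221, 162, 169.7, 206 and 176 CPM in the control libraries, a difference of -0.53 (standard error 0.11, adjusted p = 0.356). DESeq2 gave Trank1 an adjusted p-value of 0.0136, and without the 3 libraries of few genes the difference was -0.50. Nrbp2, a pseudokinase, was at 75.1, 77.9, 76.9, 68.1 and 59.9 CPM against 95.2, 90.1, 86.9, 85.9 and 90.6 CPM, a difference of -0.33 (SE 0.10). Arhgef15, an exchange factor of small GTPases known in blood vessels and synapses, differed by -0.49 (SE 0.17), and Igsf3, of the immunoglobulin superfamily, by -0.63 (SE 0.21, -0.38 without the 3).

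In 5 of the lower genes, control library s155 stood far above the other controls. Rfx4, a transcription factor of neural progenitors and astrocytes, was at 44.1 CPM there, against 18.5 to 21.2 CPM in the other controls and 10.9 to 17.5 CPM in the APPSWE libraries, and its difference went from -0.76 (SE 0.25) to -0.29 without the 3 libraries of few genes. Sbno2, a transcriptional co-regulator of inflammatory signalling, went from -0.92 (SE 0.33) to -0.37 in the same way. Leng8 went from -0.70 (SE 0.18) to -0.38, Aars2, the alanyl-tRNA synthetase of mitochondria, from -0.56 (SE 0.18) to -0.39, and Vipas39, which acts in endosomal sorting, from -0.48 (SE 0.13) to -0.27. All 19 genes kept their sign under every alternative run, but genes chosen for no overlap keep it almost by necessity when libraries are left out. Without the 3 libraries, 12 of the 19 kept an unadjusted p-value below 0.05 by edgeR. In the Cmpd60-treated mice, 14 of the 19 had the same sign of genotype difference, where 50.6% of all genes did, and 0 of those 14 had p below 0.05 there by edgeR.

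**Figure D4:**
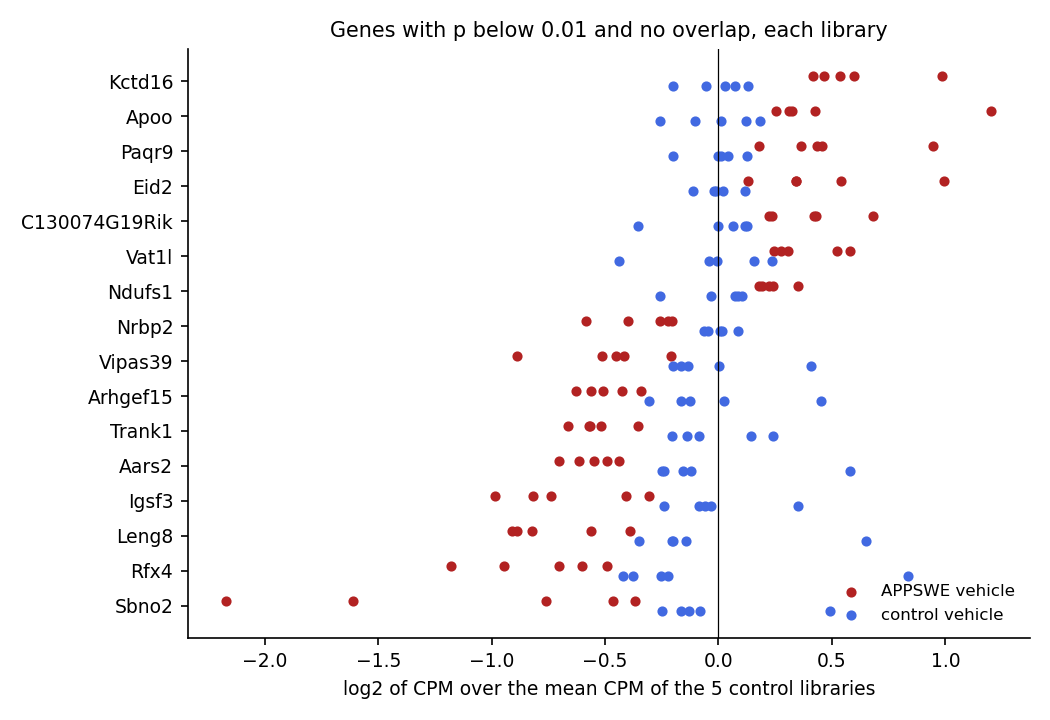
Log2 of CPM over the mean CPM of the 5 control libraries (x axis) for the 16 named genes other than Rpl29 with p below 0.01 and no overlap (y axis); each point is 1 library, red APPSWE and blue control. In Rfx4, Leng8 and Aars2, 1 control point, library s155, lies far to the right of the other 4, and in Apoo and Kctd16 1 APPSWE point, library s140, does.

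The secretases and partners that act on APP did not move with the transgene as a group. Of the 25 genes of APP processing, 24 had a mean of at least 10 CPM, 13 of them higher and 11 lower, with a median log2 fold change of 0.03 beside 0.01 over all genes. Here 1 of the 24 had p below 0.05. That gene, Aph1a of the gamma-secretase complex, was at 79.0, 37.1, 37.0, 41.9 and 87.7 CPM in the APPSWE libraries and at 43.1, 37.1, 46.2, 40.9 and 25.9 CPM in the control libraries. Its difference of 0.55 (SE 0.20) came from APPSWE libraries s140 and s146, since the other 3 lay within the controls, and it was -0.12 without the 3 libraries of few genes. The beta-secretase Bace1, given for its known role, was between 86.1 and 132 CPM in the APPSWE and between 105 and 154.9 CPM in the control libraries (-0.13, SE 0.12, 0.018 without the 3). Rtn4, a neuronal reticulon that binds Bace1, differed by 0.10 (SE 0.07), Aph1b by 0.43 (SE 0.31, 0.16 without the 3) and the APP-binding adaptor Apbb2 by -0.22 (SE 0.18, 0.048 without the 3).

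Genes of amyloid clearance and lipoproteins were also near the background, with 5 of 15 higher, 10 lower and a median of -0.02. Apod, a lipid carrier of glia, was at 277, 256, 200.4, 247 and 245 CPM in the APPSWE libraries and at 213, 168, 202, 189 and 157 CPM in the control libraries, and was the 1 member with p below 0.05 (0.40, SE 0.13, adjusted p = 0.508, edgeR). The groups overlapped through APPSWE library s144. In the Cmpd60-treated mice the difference of Apod was -0.27 (SE 0.14), and the test of the difference between both did not pass the adjusted threshold (adjusted p = 0.938, edgeR). Apoe, the main lipoprotein of astrocytes, was between 1432 and 1909 CPM in the APPSWE and between 1568 and 1827 CPM in the control libraries (-0.05, SE 0.11, -0.18 without the 3). The apolipoprotein E receptor Lrp8 differed by 0.24 (SE 0.16, 0.02 without the 3), the protease inhibitor A2m by 0.29 (SE 0.27, -0.050 without the 3) and neprilysin, Mme, an enzyme that degrades amyloid beta, by -0.24 (SE 0.24). Tau and its kinases held 10 higher and 5 lower of 15, with a median of 0.03 and 0 with p below 0.05 by edgeR. The tau gene Mapt was between 567 and 653 CPM in the APPSWE and between 551 and 636 CPM in the control libraries (0.06, SE 0.07), while the kinase activator Cdk5r1 differed by -0.19 (SE 0.10, -0.02 without the 3), the phosphatase subunit Ppp2r2b by 0.13 (SE 0.10) and the kinase Fyn by 0.09 (SE 0.11).

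Disease-associated genes of microglia were measured at very different levels. Of the 24 on the list, 12 had a mean of at least 10 CPM, while Trem2, Tyrobp, Itgax, Cst7 and Clec7a lay below it in both groups. Trem2 was at 1.16, 4.36, 2.49, 3.04 and 7.75 CPM in the APPSWE libraries and at 6.36, 3.89, 5.22, 7.40 and 0.0402 CPM in the control libraries (-0.29, SE 0.66, -0.80 without the 3), with the lowest value in library s155. Tyrobp ranged from 2.41 to 9.83 CPM in the APPSWE and from 0.0402 to 6.57 CPM in the control libraries (0.27, SE 0.71, -0.33 without the 3). Itgax reached 2.89 and 2.05 CPM, Cst7 3.11 and 0.147 CPM and Clec7a 0.527 and 0.533 CPM at most in the APPSWE and control libraries, and each was at 0 in at least 1 library of each group. In bulk tissue, fewer cells of a type and less RNA per cell cannot be told apart.

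Of the 12 disease-associated genes that were measured above 10 CPM, 9 were higher and 3 lower, with a median of 0.09, and the median was -0.02 without the 3 libraries of few genes. The secreted phosphoprotein Spp1, at 25.1 to 57.1 CPM in the APPSWE and 19.3 to 45.3 CPM in the control libraries, differed by 0.24 (SE 0.25). The receptor kinase Axl differed by -0.06 (SE 0.13, -0.28 without the 3) and lipoprotein lipase, Lpl, by -0.12 (SE 0.20, -0.33 without the 3), and like Spp1 they were given after their values were seen. B2m, the light chain of MHC class I, was the 1 member with p below 0.05, and it was lower, at 7.95, 27.4, 21.98, 41.4 and 28.02 CPM in the APPSWE against 33.9, 35.1, 57.4, 28.3 and 39.6 CPM in the control libraries (-0.62, SE 0.28, -0.36 without the 3). The iron store Fth1 differed by 0.12 (SE 0.09), and the lysosomal proteases Ctsd and Ctsb by 0.18 (SE 0.17, -0.21 without the 3) and 0.09 (SE 0.08, -0.027 without the 3). Of these 12 genes, 0 were higher in APPSWE with Cmpd60. Other lists also went 1 way there, with 0 of 16 oligodendrocyte and myelin markers and 8 of 8 thalamic markers higher. Homeostatic microglial markers held 3 higher and 8 lower of 11, with a median of -0.16 and 0 with p below 0.05 by edgeR. Tmem119, a marker of resident microglia, was at 6.33, 15.1, 14.9, 20.3 and 21.6 CPM against 21.8, 16.5, 14.9, 23.4 and 36.5 CPM (-0.53, SE 0.30, -0.20 without the 3). The fractalkine receptor Cx3cr1 differed by -0.26 (SE 0.15, -0.16 without the 3) and Tgfbr1 by -0.41 (SE 0.21, -0.02 without the 3). Without control library s155 alone, Tmem119 differed by -0.29 and Tgfbr1 by -0.18. The 15 homeostatic markers tested, at any level, summed to 435-505 CPM in the APPSWE and 415-572 CPM in the control libraries.

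Complement and plaque-linked glial genes were 7 higher and 13 lower of 20, with a median of -0.05. The lysosomal membrane protein Laptm5 of microglia was lower (-0.63, SE 0.25), from 9.45 to 21.5 CPM in the APPSWE and from 14.1 to 31.1 CPM in the control libraries, and the difference was -0.20 without the 3 libraries of few genes. C4b, the complement component of astrocytes and oligodendrocytes, spread from 30.1 to 119 CPM in the APPSWE and from 26.4 to 157 CPM in the control libraries (-0.49, SE 0.37, -0.09 without the 3), and the lysosomal enzyme Man2b1 differed by 0.22 (SE 0.16, -0.025 without the 3). Gfap, the filament protein that reactive astrocytes raise, was at 313, 233, 278, 309.6 and 344 CPM in the APPSWE libraries and at 295, 282, 308, 308 and 338 CPM in the control libraries. Its log2 fold change was -0.05 (standard error 0.12, 95% confidence interval -0.29 to 0.19, -0.13 without the 3). The 15 astrocyte markers (10 higher, 5 lower, median 0.05, and 6 higher, 9 lower without the 3) and the 16 of oligodendrocytes and myelin (9 higher, 7 lower, median 0.01) held 0 with p below 0.05 by edgeR.

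Synaptic genes lay close to equality. Of 21 genes of synaptic vesicles and release, 11 were higher and 10 lower, with a median of 0.0041, and Snap25, a SNARE of vesicle fusion, was the 1 with p below 0.05 (0.14, SE 0.07), at 3096, 2986, 2882, 3015 and 2751 CPM in the APPSWE and 2673, 2576, 2667, 2860.0 and 2565 CPM in the control libraries. Glutamate receptors and their scaffold (12 of 23 higher, median 0.02) and GABA receptors (8 of 14 higher, median 0.02) had 0 with p below 0.05 by edgeR.

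Most immediate early genes, which neurons switch on with activity, were higher in the APPSWE mice. Of 17 members at or above 10 CPM, 14 were higher and 3 lower, with a median of 0.09, and 3 had p below 0.05, all higher, beside 53.3% of all genes higher and 4.94% with p below 0.05. Arc, whose protein regulates AMPA receptors at synapses, was at 125, 191, 106, 148.7 and 129.6 CPM in the APPSWE libraries and at 60.2, 73.1, 135, 73.1 and 65.9 CPM in the control libraries. Control library s151 thus lay among the APPSWE libraries and the other 4 controls below them all. The difference of Arc was 0.78 (SE 0.20, adjusted p = 0.508, edgeR), and without library s151 it was 1.04 (adjusted p = 0.0281). The postsynaptic scaffold Homer1 differed by 0.28 (SE 0.12, 0.44 without the 3) and the phosphatase Dusp1 by 0.44 (SE 0.21), with library s151 again the highest control for Dusp1 at 33.1 CPM. Egr1, a zinc finger factor, differed by 0.29 (SE 0.16), and Fos, given for its known role, by 0.21 (SE 0.27, 0.41 without the 3), with library s151 at 30.97 CPM above all APPSWE libraries. With 1 library left out, the median of the list ranged from 0.04 to 0.28, highest without control library s151. It was 0.30 with all 17 members higher without the 3 libraries of few genes. Of the 10 fits with 1 library left out, Arc had p below 0.05 by edgeR in 10, Homer1 in 7 and Dusp1 in 3.

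In the Cmpd60-treated mice the same genes were 4 higher and 13 lower in APPSWE than in control libraries. Arc differed there by -0.37 (SE 0.21), Dusp1 by -0.45 (SE 0.23) and Fos by -0.77 (SE 0.29). The test of the difference between the genotype effects of the vehicle and Cmpd60-treated mice gave an adjusted p-value of 0.938 for Arc, and one below 0.05 for 0 of all 10417 genes by edgeR, of which 263 had an unadjusted p-value below 0.05, Arc, Dusp1 and Fos among them.

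The unfolded protein and heat shock list was mostly higher in the APPSWE mice, and leaving out 1 library changed that. It held 19 higher and 3 lower of 22, with a median of 0.12, and without APPSWE library s145 it held 10 higher and 12 lower, with a median of -0.04. Without the 3 libraries of few genes, which leaves s145 as 1 of 3 APPSWE libraries, 19 were higher, 11 of them with p below 0.05, and the median was 0.27. In that fit, 321 of all 10417 genes had p below 0.05 by edgeR, and 51.1% of all genes were higher. In library s145 the chaperone Hsp90aa1 was at 2206 CPM, against 1405 to 1809 CPM in the other APPSWE libraries and 1436 to 1593 CPM in the controls (0.19, SE 0.09, 0.31 without the 3), and Hsph1 at 650.3 CPM against 253 to 399 CPM in all other vehicle libraries (0.31, SE 0.17, 0.48 without the 3). The endoplasmic reticulum chaperone Calr and the disulfide isomerase Pdia4 were also highest in library s145, at 394 and 68.9 CPM, with differences of 0.17 (SE 0.09) and 0.39 (SE 0.22). Library s145 was not alone above the controls. For Hsp90aa1, Calr and Pdia4, 3 APPSWE libraries each were above all controls, and 2 were for Hsph1. For Hsp90aa1, 1 APPSWE library was below all controls. No fit left out s145 together with the 3 libraries of few genes.

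RNAs that stay in the nucleus were lower in the APPSWE libraries, by unadjusted p-values. Malat1, a long noncoding RNA of nuclear speckles, was at 369.8, 389.9, 394, 272 and 347 CPM in the APPSWE libraries and at 479.9, 486, 517, 384 and 706 CPM in the control libraries. Its difference was -0.54 (SE 0.18, adjusted p = 0.508, edgeR), and the groups overlapped only through control library s154, at 384 CPM. Meg3, an imprinted noncoding RNA, was at 825, 776, 887, 646 and 749.6 CPM against 998, 864, 1023, 917 and 1197 CPM (-0.36, SE 0.13), and the neuronal noncoding RNA Snhg11 differed by -0.38 (SE 0.16). Neat1, of paraspeckles, did not go with them (0.01, SE 0.22, -0.30 without the 3), with library s140 at 68.3 CPM and the other APPSWE libraries between 36.7 and 40.4 CPM. The 4 RNAs had a median of -0.37, or -0.36 with 0 at p below 0.05 by edgeR without the 3 libraries of few genes. Reads outside annotated genes made up 4.95, 4.70, 4.81, 3.99 and 4.43% of the APPSWE and 4.76, 4.98, 5.47, 4.49 and 5.90% of the control reads, and the part of RNA quality or of nuclear RNA content in the difference was not tested.

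Most respiratory and ribosomal genes were slightly higher, and without the libraries of few genes most were lower. Of 72 nuclear genes of oxidative phosphorylation, 50 were higher and 22 lower, with a median of 0.08. No larger share of them than of all genes (4.94%) had p below 0.05, namely 3, all higher. These were Ndufs1, the ATP synthase subunit Atp5h (0.34, SE 0.13, 0.06 without the 3) and the complex I subunit Ndufb6 (0.42, SE 0.20, 0.09 without the 3). Without APPSWE library s140 they were 35 higher and 37 lower (median -0.01), and without the 3 libraries 28 higher and 44 lower (median -0.06). The 10 genes of the mitochondrial genome went the other way, 9 of them lower with a median of -0.12. Of these, mt-Nd5 had p below 0.05 (-0.27, SE 0.13), and had it in 4 of the 10 fits with 1 library left out. In the Cmpd60-treated mice all 10 were higher in APPSWE, with a median of 0.10. The complex IV subunit mt-Co1 was at 7972, 7949, 5277, 5212 and 5131 CPM in the APPSWE and 8825, 6501, 7038, 7252 and 6676 CPM in the control libraries (-0.20, SE 0.13), and mt-Cytb and mt-Nd4 differed by -0.19 (SE 0.12) and -0.20 (SE 0.16).

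Of 76 cytosolic ribosomal protein genes, 58 were higher and 18 lower, with a median of 0.09, and 5 had p below 0.05, all higher, Rpl29 among them, a share near the 4.94% of all genes. Rps3a1 was at 362, 280.5, 333, 349.7 and 367 CPM in the APPSWE and 276, 284, 307, 295 and 203 CPM in the control libraries (0.31, SE 0.11, 0.14 without the 3), and Rpl23a and Rps15a differed by 0.35 (SE 0.13) and 0.32 (SE 0.12, 0.08 without the 3). Without the 3 libraries of few genes, 33 were higher and 43 lower (median -0.01). With Cmpd60, 29 were higher and 47 lower. Ribosomal protein genes have many processed copies, so reads that align to several of them can be missing from the counts.

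**Figure D5:**
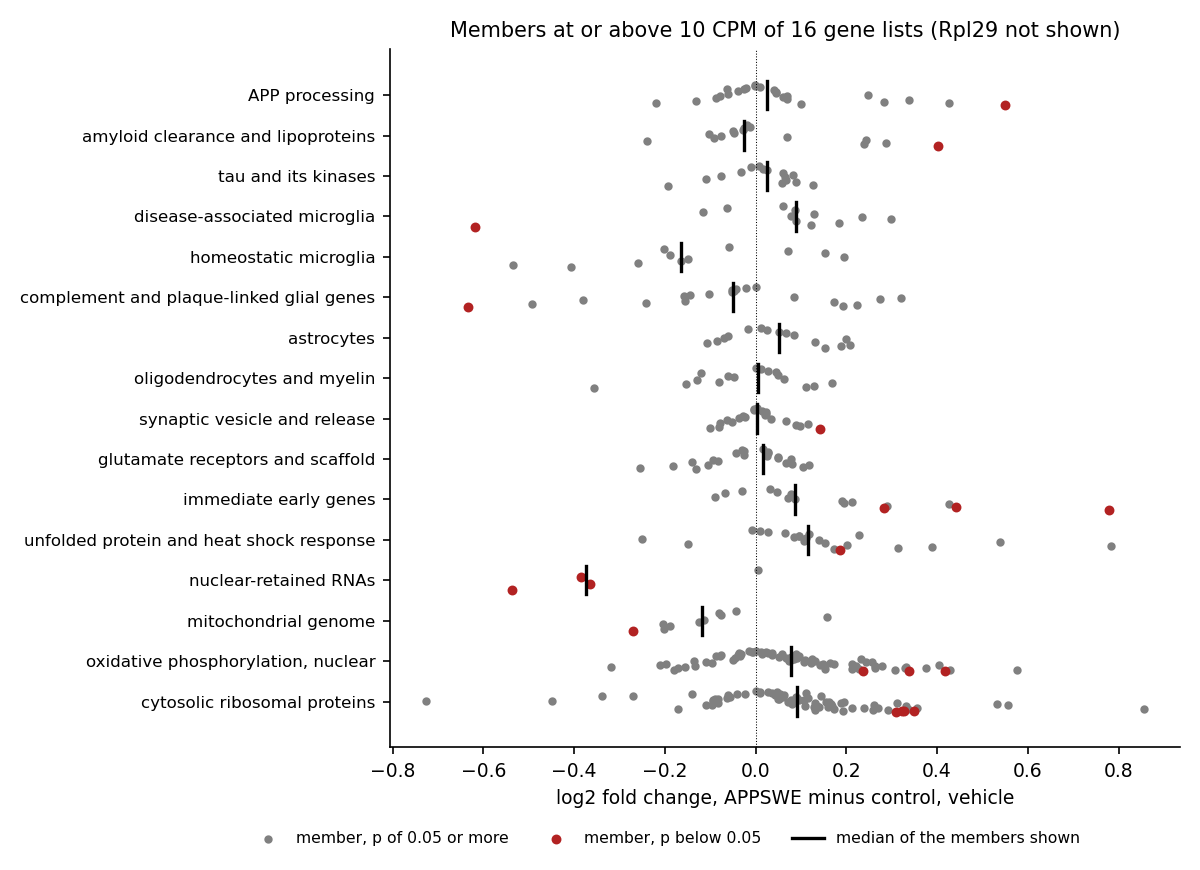
Log2 fold change of APPSWE over control mice (x axis) for each member at or above 10 CPM of 16 gene lists (y axis), without Rpl29. Grey points had p of 0.05 or more, red points p below 0.05, and black bars are medians, which lie between -0.37 for the nuclear-retained RNAs and 0.12 for the unfolded protein and heat shock list.

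Marker lists of brain regions and of other cells moved by amounts of the same order. Striatal markers were 2 higher and 10 lower of 12, with a median of -0.16. Rgs9, a regulator of dopamine receptor signalling, was at 39.7, 44.9, 41.4, 24.3 and 33.2 CPM in the APPSWE and 39.3, 61.5, 48.7, 40.4 and 63.2 CPM in the control libraries (-0.46, SE 0.18). The adenosine receptor Adora2a and the phosphodiesterase Pde10a differed by -0.44 (SE 0.29, -0.20 without the 3) and -0.18 (SE 0.13, -0.10 without the 3). In the Cmpd60-treated mice, 12 of the 12 were higher in APPSWE. Cerebellar markers were 11 higher and 1 lower of 12, with a median of 0.09, and the factor Zic1 had p below 0.05 (0.39, SE 0.19, 0.24 without APPSWE library s140 and 0.01 without the 3). Without the 3 libraries of few genes, 3 cerebellar markers were higher and 9 lower. Summed levels of cerebellar markers spread from 2133 to 3826 CPM in the APPSWE and from 2508 to 3510 CPM in the control libraries, and those of choroid plexus from 428 to 1678 and from 576 to 1270 CPM, so these marker levels varied within each group, and the part of the tissue's make-up in the differences above was not tested.

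Among 15 clock genes, Cry1, a repressor of the clock, was higher (0.38, SE 0.17, 0.18 without the 3) and Dbp, one of its output factors, lower (-0.29, SE 0.14), with a median of 0.04 for the list. Among 14 glucocorticoid-responsive genes, Klf9 was higher (0.18, SE 0.08, 0.09 without the 3), with a list median of 0.10. The remaining lists, for cortical, hippocampal, thalamic and olfactory bulb neurons, interneurons, hypothalamic neuropeptides, precursors of oligodendrocytes, vessels, meninges, choroid plexus, red blood cells and the interferon response, had 0 members with p below 0.05 by edgeR, with medians from -0.32 to 0.24.

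Set beside the mice that received Cmpd60, which share no library with the vehicle groups, the genotype difference of the vehicle mice seldom recurred gene by gene. In the 9 Cmpd60-treated libraries, 0 of the 10417 genes passed an adjusted p-value of 0.05 and 96 had p below 0.05 by edgeR. Control library s152 (15084 genes) and APPSWE library s141 (16402 genes) of these also had few genes. No fit was run without them, so the values of the Cmpd60-treated mice, here and above, include these libraries. The share of all genes higher in APPSWE with Cmpd60 was not computed, so the list counts given for these mice stand without that background. Of all genes, 5274 (50.6%) had the same sign in both comparisons, and the log2 fold changes had a Pearson correlation of 0.048 across genes, which share their libraries and are not independent replicates. Of the genes given above, Trank1 differed by -0.53 in the vehicle and 0.09 in the Cmpd60-treated mice, Paqr9 by 0.50 and 0.04, Malat1 by -0.54 and 0.0035, and Vipas39 by -0.48 and -0.28.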

How the data were processed

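Brain RNA of the APPSWE cohort was sequenced in 20 libraries from oligo-dT-selected mRNA with a directional kit. The authors trimmed reads with Trimmomatic 0.32, aligned them with HISAT2 2.1.0, counted them by strand with HTSeq 0.11.0, and deposited raw counts per gene; the genome build is not given in the sources used here. The 5 summary lines of each file, which held 15.4-18.7% of reads in the 10 vehicle libraries, were left out, among them the line of reads that align to several places. Symbols were matched to 32651 gene identifiers, 2390 of them updated. In R 4.3.3, genes were kept where 3 or more of the 20 libraries held over 2 counts. They were normalized with TMM and entered edgeR 4.0.16 (quasi-likelihood F test), in a fit of 4 groups with library s139 on a term of its own, with Benjamini-Hochberg adjustment over all genes tested. A count of 0 allows up to 3 counts, 0.0537-0.119 CPM in the vehicle libraries, for counting error only. Alternatives were DESeq2 1.42.0, its size factors, limma-voom (limma 3.58.1) with and without quality weights, other filters, library sets and depths. Named genes were App and Prnp, genes with an adjusted p below 0.05, those with p below 0.01 and no overlap of the groups, and up to 4 members of each list with the smallest p; others are given for a known role, after their values were seen. Predicted and unnamed genes were counted but, apart from those given with Rpl29 and ENSMUSG00000094497, not described, and some list members are not reported here. Members and lists were chosen with earlier results of these data known. The method was tested on simulated data in which each gene had the same spread in all libraries. The larger deviation of libraries s140, s146 and s155 was not simulated, so that test does not cover it. The paper's tables of fold changes were not used.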

Additional observations from a re-analysis of the deposited data

Results flagged for a closer look

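Within each group of 5 vehicle libraries, 172 values were checked for a library far from the other 4 (Dixon's test at the 95% level, where chance flags about 1 in 20 groups), and 17 were found, 6 of them in APPSWE library s140 and 6 in control library s155. Both are among the 3 libraries with the fewest genes detected. In APPSWE library s140 these were Kctd16 at 21.7 CPM (others 14.6 to 16.6), Apoo at 46.3 CPM (others 24.0 to 26.996), Neat1 at 68.3 CPM (others 36.7 to 40.4), the protease Ctsd at 157 CPM (others 64.03 to 88.9), Bace1, low at 86.1 CPM (others 119 to 132), and the total of 55871402 gene counts (others 26953901 to 28410333). In control library s155 they were Sbno2 at 28.8 CPM (others 17.2 to 19.3), Rfx4 at 44.1 CPM (others 18.5 to 21.2), Leng8 at 168 CPM (others 84.1 to 97.3), Aars2 at 52.4 CPM (others 29.5 to 32.2), Vipas39 at 86.7 CPM (others 56.9 to 65.5) and the share of unaligned reads, 2.70% (others 2.08 to 2.14%). The other 5 were Rpl23a, low at 88.8 CPM in APPSWE library s142, Arc at 135 CPM in control library s151, mt-Cytb at 3096 CPM and mt-Nd4 at 1502 CPM in control library s149, and the total of 37844133 gene counts in control library s150. What made these libraries differ was not tested.

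Rpl29 was also read in the 12 brain libraries of the aged cohort, which enter no comparison here. Their median was 51.1 CPM (43.1 to 58.2), far above the 0 to 1.71 CPM of the vehicle controls.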

How the results depend on the processing

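No paired analysis was possible because the labels number each library once and the groups share no replicate number. The 1 gene called at 10 CPM or more became 2 with DESeq2 (Rpl29 and Trank1, -0.54), and 0 with limma-voom (829 genes at p below 0.05), with limma-voom and quality weights (526), and without the 3 libraries of few genes, an alternative chosen after the data were seen (321). Leaving out 1 library at a time gave 0 to 3 calls, with 0 without control library s149 (498 at p below 0.05), s150 (549) or s155 (325), 3 without control library s151, and 0.442 to 1.08% of genes at p below 0.01 and 325 to 650 genes below 0.05. The share at p below 0.01, 0.643%, was 1.45% with DESeq2, 1.43% with limma-voom, 0.298% in a fit of the vehicle libraries alone and 1.16% with the genes detected as a covariate. Of those below 0.05, 51.7% were higher, against 40.5% with limma-voom. Rpl29 missed the adjusted threshold with limma-voom (6.93), with quality weights (6.54) and without the 3 libraries (6.28), and was between 5.86 and 6.89 with 1 library left out. ENSMUSG00000094446 missed it with quality weights (6.78) and without the 3 libraries (6.51). Gm10709 passed it with DESeq2, limma-voom, no filter and the vehicle libraries alone. Without the 3 libraries the medians of the clock and disease-associated microglia lists were 0.12 and -0.017.

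Some genes changed sign, none of them called by edgeR. Near 0 were Prnp (-0.015 with limma-voom, -0.0015 with only genes of 10 CPM in the fit, -0.00010 thinned, -0.035 to 0.038 with 1 library left out) and Neat1 (-0.30 with quality weights, -0.0030 with no filter, -0.0023 with only genes of 10 CPM, -0.092 with the covariate, -0.30 without the 3 libraries, -0.22 to 0.076 with 1 left out). Larger differences turned as well. With quality weights A2m (0.29) was at -0.11, Ctsd at -0.089 and Ctsb at -0.0017, and with limma-voom Trem2 (-0.29) was at 0.14. Without the 3 libraries A2m was at -0.050, Aph1a at -0.12 (from 0.55), Apbb2 at 0.048 (from -0.22), Man2b1 at -0.025 (from 0.22), Ctsd at -0.21, Ctsb at -0.027 and Bace1 at 0.018. With 1 library left out, Ctsd ranged from -0.082 to 0.30 and Gfap from -0.12 to 0.023. The cause was not tested. Libraries of 25119590 counts or more limit genes of 10 CPM little by total counts, while the spread between libraries sets the median standard error of 0.17. Even so, 11 genes with a mean of at least 10 CPM were at 0 counts in control library s155 and 8 in APPSWE library s140. The other vehicle libraries had 0 to 2 such genes.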
